A study of Sus scrofa with 8 samples.

Results

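The cytosolic ribosomal protein genes of the pig were followed in H3K27ac ChIP-seq of pgEpiSC and pEF. They were taken as every protein-coding gene on chromosomes 1 to 18 whose RefSeq symbol begins with RPL or RPS followed by a digit, P or A, leaving out the RPS6 kinases and RPS19 binding proteins. The rule found 80 genes of 16315 protein-coding genes with a symbol on these chromosomes and X, namely 31 of the small subunit and 49 of the large subunit. The 80 entries carry 79 distinct symbols, because RPL18 is listed once on chromosome 1 and once on chromosome 6. A further 4 ribosomal protein genes lie on X and were not counted among the 80.

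Ribosomal proteins and ribosomal RNA together build the ribosome, the particle that translates mRNA into protein. The small subunit reads the mRNA, and the large subunit joins the amino acids and carries the flexible stalk that recruits translation factors. The genes are transcribed in every growing cell and are spread over the genome, and their output has to be matched to one another and to the demand for protein. H3K27ac, an acetyl mark on histone H3, lies at active promoters and enhancers.

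pgEpiSC are pig pre-gastrulation epiblast stem cells, labelled as embryonic epiblast of embryonic day 10, and pEF are porcine embryonic fibroblasts, labelled as fetal, day 30. Each cell type had 2 H3K27ac libraries, numbered 1 and 4 in pgEpiSC and 1 and 2 in pEF, made with the same antibody (ab4729) and each matched by an input library of unprecipitated chromatin. No treatment or genetic change is given for either cell type. The labels do not say whether the libraries of a cell type came from separate lines, animals or cultures, so p-values measure the spread between these libraries, which may be technical.

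The authors' lists give islands, stretches in which H3K27ac reads cluster, with the ChIP and input reads in each. The lists held 64620 and 74208 islands for pgEpiSC, against 62261 and 57790 for pEF, with between 29679982 and 46383051 ChIP reads in islands per library. The islands of pgEpiSC covered 408 and 414 Mb, against 273 and 275 Mb in pEF. The end islands of a gene are here all islands that reach within 2 kb of either of its ends, and their reads are given as RPM, ChIP reads per 1000000 ChIP reads in all islands of the library. Marker genes followed the labels: end islands of 6 pluripotency genes (7 entries, NANOG being listed at 2 places) held 1287 and 1078 RPM in sum in the pgEpiSC libraries, against 7.80 and 5.61 in pEF, and those of 6 fibroblast genes held 24.0 and 11.7 in pgEpiSC, against 1305 and 1473 in pEF. Summed end-island reads of 5 endothelial markers were 78.5 and 56.8 RPM in pgEpiSC and 0 in both pEF libraries, with KDR at 0 in all 4. Those of 4 keratinocyte markers were 16.8 and 28.0 in pgEpiSC and 0 in both pEF libraries, with KRT5 at 0 in all 4, and 5 blood markers summed to 172 and 178 in pgEpiSC and 70.5 and 93.7 in pEF. Of the blood sum, 101 and 104 RPM in pgEpiSC came from CD79A, whose end island in pgEpiSC is also that of RPS19. The part of these other cell types in the results below was not tested.

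Nearly every ribosomal protein gene carried H3K27ac at an end in both cell types. An end island was listed in all 4 libraries for 78 of 80 genes (97.5%), against 67.8% of all genes. Only RPL10L had end islands in both pgEpiSC libraries and in no pEF library, a pattern found in 7.31% of all genes. None was acetylated in the pEF libraries alone, against 4.48% of all genes, and none lacked an end island everywhere, against 10.2% of all genes. The remaining entry, RPL18 on chromosome 1, is only 600 bp long and had an end island in pEF 2 alone. These are presence calls per library, with no test.

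RPL10L encodes a copy of RPL10 that is known from mice as a testis gene. Its end islands held 12.4 and 12.7 RPM in pgEpiSC 1 and 4, and none was listed in pEF 1 or pEF 2. They were thin, at 1.78 and 1.77 RPM per kb, which placed the gene at percentiles 5.93 and 5.21 among all genes with an end island in those libraries. Counting only islands enriched 2-fold or more over input, RPL10L kept an end island in pgEpiSC 4 alone, and no ribosomal protein gene had end islands in both pgEpiSC libraries only, against 2.06% of all genes. The chromosome 1 entry of RPL18 held 20.5 RPM in pEF 2 and no end island in the other 3 libraries. The chromosome 6 entry of RPL18 held 84.1 and 95.4 RPM in pgEpiSC, against 90.3 and 28.8 in pEF, where pEF 1 lies between the pgEpiSC libraries and pEF 2 lies below them all.

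Ribosomal protein genes are short, with a median length of 3.98 kb, against 25.6 kb for all genes, and islands often ran over the whole gene. All of the gene lay in islands for 62 and 60 of the 80 genes in pgEpiSC 1 and 4, against 30 and 31 in pEF 1 and 2. Of all genes, 5.35% and 5.14% were covered in full in pgEpiSC and 3.65% and 3.40% in pEF. An end island was shared with another protein-coding gene for 59 of the 80 in each pgEpiSC library and for 50 in each pEF library, and 20 genes shared none in any library. RPS2 and RPL3L, which lie side by side, shared an island in all 4 libraries and are therefore not independent of each other. Reads in a shared island cannot be assigned to either gene.

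End islands of ribosomal protein genes mostly held more H3K27ac reads in pgEpiSC than in pEF. Of the 78 genes with end islands in all 4 libraries, 27 passed the test as higher in pgEpiSC, 3 as higher in pEF (RPL28, RPS27L and RPL30), and 48 did not pass. Over all genes tested, 20.3% were higher in pgEpiSC and 19.8% higher in pEF, so the ribosomal protein genes were called higher in pgEpiSC more often, and higher in pEF less often, than the share of all genes. The median log2 fold change of the 78 genes, pgEpiSC over pEF, was 0.61, against -0.00 over all genes, and 61 of the 78 lay above 0. Among the 18 tested genes that shared no end island with another gene, 6 passed for pgEpiSC and 1 for pEF, with a median of 0.64. Both pgEpiSC libraries exceeded both pEF libraries in 51 genes (65.4%), against 34.8% of all genes, and both pEF libraries exceeded both pgEpiSC libraries in 15 (19.2%), against 40.6% of all genes. The test was edgeR's quasi-likelihood test on ChIP reads, with Benjamini-Hochberg adjustment over 11057 genes and a threshold of 0.05. The count of 27 depended on all 4 libraries: it was 15 without pgEpiSC 1 (14.9% of all genes), 13 without pgEpiSC 4 (14%), 7 without pEF 1 (11%) and 10 without pEF 2 (10.5%), while all 27 kept their sign in each of these fits. The count of 3 was 1 without pgEpiSC 1 (10.2% of all genes), 1 without pgEpiSC 4 (9.84%), 3 without pEF 1 (11.2%) and 2 without pEF 2 (11%). Fewer cells with the mark and less mark per cell cannot be told apart in such bulk samples.

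**Figure D1:**
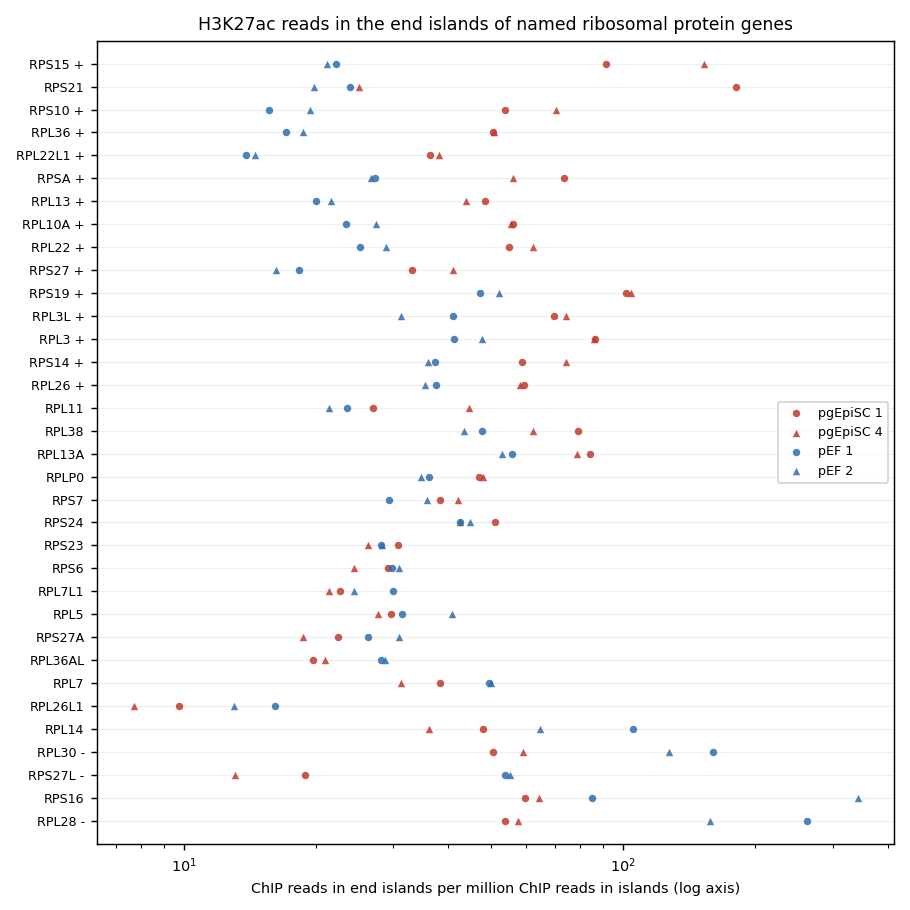
H3K27ac reads in the end islands of the 34 ribosomal protein genes that the rule for named genes selects and that have an end island in every library. Each line is a gene, ordered by its fold change, and the horizontal log axis gives RPM. Red symbols are the 2 pgEpiSC libraries and blue symbols the 2 pEF libraries. A plus after a name marks the 14 of these called higher in pgEpiSC and a minus the 3 called higher in pEF by edgeR. In 20, both red symbols lie to the right of both blue ones. Over all genes tested these shares were 20.3%, 19.8% and 34.8%. Some of the 34 genes were chosen for large changes in these data, so their counts cannot be compared with those shares.

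In pgEpiSC 12 of the 31 small subunit genes were higher (20.3% of all genes), and 1 was higher in pEF (19.8%), with a median log2 fold change of 0.62. RPS15, a protein of the head of the small subunit, had the largest change. Its end islands held 91.6 and 153 RPM in pgEpiSC 1 and 4, against 22.2 and 21.2 in pEF 1 and 2, a log2 fold change of 2.57 ± 0.35 (SE, n = 2 each; edgeR adjusted p = 0.010). Both pgEpiSC libraries lay far above both pEF libraries, which were close to each other. In pgEpiSC the gene sat in islands of 28.6 and 41.0 kb on chromosome 2 (77031601 to 77060200 and 77031201 to 77072200 in the coordinates of the lists), against 5.2 and 5.0 kb in pEF (77040801 to 77046000 and 77040801 to 77045800). The pgEpiSC islands of RPS15 also reached the ends of 2 other protein-coding genes, while the pEF islands reached none. Others of the small subunit called higher in pgEpiSC included RPS10, RPSA, RPS27, RPS19, RPS14, RPS29, RPS15A, RPS26 and RPS3.

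RPS10, a surface protein of the small subunit head, held 53.9 and 70.4 RPM in pgEpiSC, against 15.6 and 19.4 in pEF (log2 fold change 1.90 ± 0.28, edgeR adjusted p = 0.012). The groups did not overlap, and the lower pgEpiSC library was well above the higher pEF library. RPSA, which is also known as a laminin receptor, held 73.5 and 56.2 RPM in pgEpiSC, against 27.3 and 26.7 in pEF (1.34 ± 0.22, edgeR adjusted p = 0.015). RPS27, a zinc finger protein, held 33.1 and 41.0 in pgEpiSC, against 18.3 and 16.2 in pEF (1.18 ± 0.22, edgeR adjusted p = 0.019). In all 3 genes each pgEpiSC library exceeded each pEF library.

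RPS19 and RPS14 are small subunit genes whose loss impairs red blood cell formation in humans. RPS19 held 101 and 104 RPM in pgEpiSC, against 47.3 and 52.3 in pEF, and its log2 fold change was 1.12 ± 0.22 (edgeR adjusted p = 0.021). RPS14 held 58.8 and 74.2 in pgEpiSC, against 37.4 and 36.0 in pEF, a change of 0.94 ± 0.22 (edgeR adjusted p = 0.035). Neither gene's groups overlapped, and the replicates of RPS19 lay close together in each cell type. The pgEpiSC island of RPS19 is the one shared with the blood marker CD79A. It reached 4 other protein-coding genes in each pgEpiSC library, so its reads cannot be assigned to any single gene. In pEF the islands of RPS19 reached 1 and 2 other genes in pEF 1 and 3 in pEF 2.

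RPS6, the small subunit protein that S6 kinase phosphorylates, did not pass the test on reads. It held 29.2 and 24.4 RPM in pgEpiSC, against 29.9 and 31.0 in pEF (-0.11 ± 0.20, edgeR adjusted p = 0.68), and the values of the cell types were close. RPS21 had a large estimate that rested on 1 library: 180 RPM in pgEpiSC 1 and 25.1 in pgEpiSC 4, against 24.0 and 19.7 in pEF. Its log2 fold change of 2.30 ± 0.95 did not pass (edgeR adjusted p = 0.12) and was 0.31 without pgEpiSC 1, where the end island was 47.0 kb long, against 5.8 kb in pgEpiSC 4 and 4.8 and 2.4 kb in pEF. Without pgEpiSC 4 the log2 fold change was 3.11 and passed (edgeR adjusted p = 0.023), within a range of 0.015 to 0.41 over all alternatives.

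RPS16, whose tail reaches towards the tRNA in the decoding site, likewise rested on 1 library, in pEF. It held 59.7 and 64.3 RPM in pgEpiSC, against 85.0 in pEF 1 and 343 in pEF 2, where the island was 36.4 kb long while that of pEF 1 spanned 13 kb and those of pgEpiSC 16 and 18.8 kb. Both pEF libraries were higher, but pEF 2 alone was far off. The log2 fold change of -1.75 ± 0.75 did not pass (edgeR adjusted p = 0.13). It was -0.32 without pEF 2 and -2.45 without pEF 1, where it passed (edgeR adjusted p = 0.029), within a range of 0.029 to 0.36 over all alternatives.

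Of the large subunit, 47 genes were tested. Of these, 15 passed as higher in pgEpiSC (20.3% of all genes) and 2 as higher in pEF (19.8%), with a median log2 fold change of 0.50. RPL36 had 50.7 and 50.8 RPM in pgEpiSC, against 17.1 and 18.7 in pEF, a log2 fold change of 1.57 ± 0.20 with the lowest adjusted p of the 78 genes (edgeR, 0.0093). RPL36 also passed in the fits leaving out each library in turn, as did RPL22L1, RPL29 and RPL34. RPL3, which lies near the catalytic centre of the large subunit, held 86.2 and 85.8 RPM in pgEpiSC, against 41.3 and 47.8 in pEF (1.02 ± 0.22, edgeR adjusted p = 0.028). RPL13 held 48.5 and 44.0 in pgEpiSC, against 20.05 and 21.6 in pEF (1.22 ± 0.20, edgeR adjusted p = 0.015). In RPL36, RPL3 and RPL13 every pgEpiSC value was above every pEF value. The other large subunit genes called higher in pgEpiSC were RPL3L, RPL22, RPL10A, RPL9, RPL34, RPL23, RPL26, RPL29, RPL22L1, RPL35A, RPL6 and RPL37. Over all 27 genes the log2 fold change ran between 0.77 and 2.57 and the edgeR adjusted p between 0.0093 and 0.040.

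RPL5 and RPL11, which with their small ribosomal RNA bind the p53 regulator MDM2 in humans and mice, did not pass the test on reads. RPL5 held 29.7 and 27.7 RPM in pgEpiSC, against 31.4 and 40.7 in pEF (-0.26 ± 0.25, edgeR adjusted p = 0.43). RPL11 held 27.02 and 44.5 in pgEpiSC, against 23.6 and 21.4 in pEF (0.75 ± 0.31, edgeR adjusted p = 0.12). In RPL11 the pgEpiSC libraries were above those of pEF but differed from each other by more than pgEpiSC 1 differed from pEF. RPL13A, which in humans also takes part in silencing mRNAs of inflammation, held 84.1 and 78.5 in pgEpiSC, against 55.9 and 53.1 in pEF, without overlap and short of the threshold (0.65 ± 0.19, edgeR adjusted p = 0.058).

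The stalk genes also did not pass on reads. RPLP0, the base of the stalk, held 47.1 and 47.9 RPM in pgEpiSC, against 36.3 and 34.7 in pEF (0.50 ± 0.18, edgeR adjusted p = 0.089). RPLP1 held 51.3 and 37.8 in pgEpiSC, against 17.7 and 32.7 in pEF (0.87 ± 0.41, edgeR adjusted p = 0.15), and RPLP2 held 60.7 and 60.0 in pgEpiSC, against 65.2 and 59.0 in pEF (0.04 ± 0.19, edgeR adjusted p = 0.89). RPLP0 and RPLP1 did not overlap between the cell types, and in RPLP2 both pgEpiSC values lay between those of pEF. RPLP1 and RPLP2 are outside the rule for named genes and were added after their values were seen, to complete the stalk.

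The 3 genes higher in pEF differed in form. RPL28, a large subunit protein, held 53.8 and 57.8 RPM in pgEpiSC, against 262 and 158 in pEF (log2 fold change -1.82 ± 0.30, edgeR adjusted p = 0.015). Its islands were 12.2 and 14.2 kb in pgEpiSC, against 33.6 and 23.2 kb in pEF, and those of pEF 1 and pEF 2 reached the ends of 5 and 4 other protein-coding genes, against 2 in each pgEpiSC library. RPL30, a large subunit protein whose yeast counterpart binds its own transcript, held 50.5 and 59.1 in pgEpiSC, against 160 and 127 in pEF (-1.31 ± 0.24, edgeR adjusted p = 0.018). Both genes had all pEF values above all pgEpiSC values.

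The pEF reads of RPL30 lay mainly at its lower coordinate end. There, islands on chromosome 4 of 19.2 and 15.6 kb held 5351 and 4261 ChIP reads in pEF, while those of pgEpiSC, 1.6 and 8.8 kb long, held 183 and 646, and in each library they also reached 1 other protein-coding gene. At the other end, an island of 9.6 and 10.6 kb held 1316 and 1613 ChIP reads in pgEpiSC. In pEF 1 that end had 2 islands with 1160 and 277 ChIP reads, and in pEF 2 it had 1 island with 1649. Scaled to the library, the lower end held 6.17 and 16.9 RPM in pgEpiSC, against 126 and 91.9 in pEF. The other end, whose islands reached no other gene, held 44.3 and 42.2 RPM in pgEpiSC, against 33.9 and 35.6 in pEF, so there both pgEpiSC values lay above both pEF values.

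RPS27L, a copy of RPS27 that p53 induces in humans, shared its end islands with no other gene. It held 18.9 and 13.1 RPM in pgEpiSC, against 53.9 and 55.2 in pEF (-1.70 ± 0.26, edgeR adjusted p = 0.012). The islands were of like width, 3.6 and 2.4 kb in pgEpiSC, against 3.6 kb in pEF 1 and pEF 2, and the density was 5.25 and 5.45 RPM per kb in pgEpiSC, against 14.98 and 15.34 in pEF. It had the highest mean density of the 78 genes, and its percentile was 93.8 and 94.2 among all genes in pgEpiSC and 99.5 and 99.6 in pEF.

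**Figure D2:**
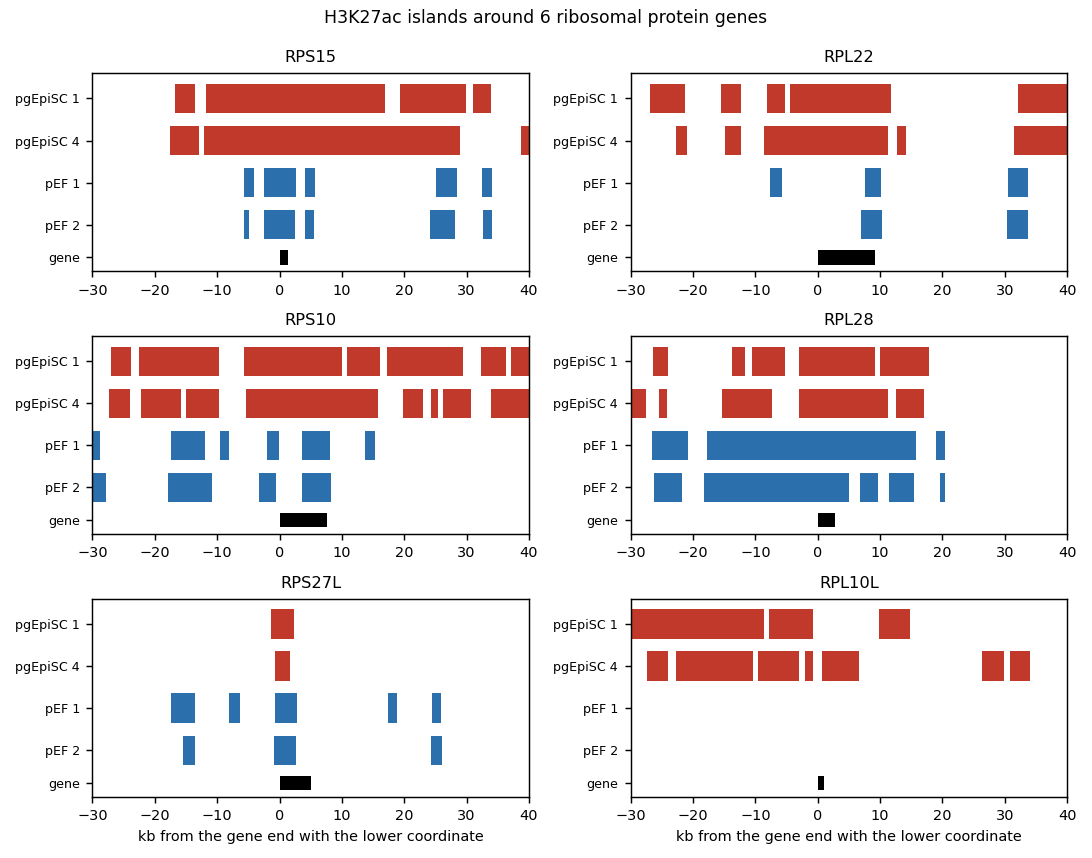
H3K27ac islands around RPS15, RPL22, RPS10, RPL28, RPS27L and RPL10L, as bars for pgEpiSC 1, pgEpiSC 4 (red), pEF 1 and pEF 2 (blue), with the gene in black. The horizontal axis is the distance in kb from the gene end with the lower coordinate, on the plus strand of the assembly. RPS15, RPL22 and RPS10 sit in wide islands in pgEpiSC and narrow ones in pEF, RPL28 has its widest island in pEF 1 (33.6 kb), RPS27L has islands of 2.4 to 3.6 kb in all 4 libraries, and RPL10L has islands near it in pgEpiSC alone.

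End islands of ribosomal protein genes were wider in pgEpiSC. Their median width was 12 and 11 kb in pgEpiSC, against 6.4 and 5.8 kb in pEF, and that of all genes was 7.2 and 7.0 kb in pgEpiSC, against 4.4 kb in pEF 1 and pEF 2. By limma with Benjamini-Hochberg adjustment, 24 of 78 genes were wider in pgEpiSC (23.2% of all genes) and 0 in pEF (6.46% of all genes), where 1 passed at an unadjusted p under 0.05. A share of 24 in 78 is near or somewhat above that of all genes, and the median log2 fold change was 0.71, against 0.52 for all genes. Centred on the median gene, which moves every log2 fold change by -0.72, 3 were wider in pgEpiSC (12.1% of all genes) and 3 in pEF (14.7%). Both pgEpiSC libraries exceeded both pEF libraries in 57 genes (73.1%), against 50.7% of all genes, and the reverse held in 3 (3.85%), against 18.9%. With any of pgEpiSC 1, pgEpiSC 4, pEF 1 or pEF 2 left out, 0 genes passed by limma, among ribosomal protein genes and among all genes, and 25 to 31 were wider in pgEpiSC at an unadjusted p under 0.05.

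The small subunit genes made up 14 of the 24, of 31 tested, with a median log2 fold change in width of 1.19, and the large subunit genes 10 of 47, with a median of 0.55. Over all genes 23.2% were wider in pgEpiSC, with a median of 0.52. The difference between the subunits was not tested. RPS15 had the largest change in width, 2.75 (limma adjusted p = 0.011), followed by RPL22, 2.60 (limma adjusted p = 0.013). Of the 27 genes with more reads in pgEpiSC, 18 were also among the 24 with wider islands.

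Density, the RPM per kb of end island, gave the opposite direction before centring. Its median over ribosomal protein genes was 4.10 and 3.90 in pgEpiSC, against 4.80 and 5.34 in pEF, and that of all genes was 3.06 and 3.04 in pgEpiSC, against 4.89 and 4.64 in pEF. By limma with Benjamini-Hochberg adjustment, 0 of 78 genes were denser in pgEpiSC, also at an unadjusted p under 0.05 (2.22% of all genes after adjustment), and 16 were denser in pEF (43.7% of all genes). The median log2 fold change was -0.34, against -0.61 for all genes. Both pEF libraries were denser than both pgEpiSC libraries in 45 genes (57.7%), against 68.3% of all genes, and the reverse held in 9 (11.5%), against 7.83%. Centred on the median gene, which moves every log2 fold change by 0.64, the split turned to 10 denser in pgEpiSC (9.25% of all genes) and 2 in pEF (7.63%), with a median of 0.30 against 0.03 for all genes. The direction of the density change thus depends on the centring. Centring moves every gene alike, so it could not alter the place of the ribosomal protein genes above the median gene. Without centring, the direction also turned when only islands enriched 2-fold or more were counted, where the counts were 15 and 0 (16.4% and 0.965%). In that setting RPM was scaled to the ChIP reads in those islands alone, so it also rescales whole libraries. The median log2 fold change was then 0.55, against 0.38 for all genes. The ratio of ChIP to input reads was fitted only after centring on the median gene. There, 3 passed for pgEpiSC and 0 for pEF (5.21% and 4.02% of all genes). Without centring, the median enrichment over input, on the authors' scale, was 3.10 and 2.74 in pgEpiSC, against 7.13 and 7.50 in pEF. The log2 fold change in density lay above 0 in 19 of 78 genes before centring and in 61 of 78 after it. It lay above 0 in 62 of 78 for centred ChIP over input reads and in 67 of 76 with the more enriched islands. Over all genes these counts were, in the same order, 1772, 5812 and 5841 of 11057, and 6078 of 7977. The count of 16 was 8 without pgEpiSC 1 (21.9% of all genes), 7 without pgEpiSC 4 (22.1%), 14 without pEF 1 (31.9%), of which 10 are among the 16, and 12 without pEF 2 (39.4%).

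The 16 denser in pEF were 10 small subunit and 6 large subunit genes. RPS27L and RPL22 are the 2 that also passed after centring. RPS7, which binds MDM2 in humans, had 3.42 and 3.82 RPM per kb in pgEpiSC, against 7.71 and 8.93 in pEF, a log2 fold change in density of -1.20 ± 0.21 (limma adjusted p = 0.0045) that was -0.55 and did not pass after centring. RPS27A, which is made as a fusion with ubiquitin, had 4.16 and 3.75 in pgEpiSC, against 8.22 and 11.03 in pEF (-1.27 ± 0.23, limma adjusted p = 0.0048), and -0.63 without passing after centring. RPS23, a protein of the decoding centre, had 5.93 and 4.11 in pgEpiSC, against 9.37 and 10.1 in pEF (-0.98 ± 0.24, limma adjusted p = 0.015). Its change was -0.34 without passing after centring, and 0.054 for ChIP over input reads, also centred. Without centring, its enrichment over input on the authors' scale was 4.43 and 3.05 in pgEpiSC, against 10.38 and 10.41 in pEF. In all 3 genes the groups did not overlap, and none of them passed the test on reads.

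RPL22, a large subunit protein known for its role in T cell development in mice, moved in opposite ways in reads and density. It held 54.9 and 62.4 RPM in pgEpiSC, against 25.2 and 28.9 in pEF (1.19 ± 0.22, edgeR adjusted p = 0.020). Its density was 3.39 and 3.12 in pgEpiSC, against 9.68 and 8.50 in pEF (-1.48 ± 0.21, limma adjusted p = 0.0024), and -0.84 with an adjusted p of 0.030 by limma after centring. The islands on chromosome 6 were 16.2 and 20 kb in pgEpiSC, against 2.6 and 3.4 kb in pEF. Those of pgEpiSC also reached the ends of 2 other protein-coding genes, while those of pEF reached none, so the added reads cannot be assigned to RPL22. The pEF islands lay over 1 end of the gene and covered 18.3% and 24.9% of it, while in pgEpiSC all of the gene was covered. RPL37 and RPS14 are the other genes called higher in pgEpiSC by reads and higher in pEF by density.

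The 10 genes denser in pgEpiSC after centring were RPS13, RPS2, RPL3L, RPL3, RPS10, RPL34, RPL38, RPL26, RPL22L1 and RPS24. RPL38, which in mice is needed for translation of Hox mRNAs, had 4.94 and 4.21 RPM per kb in pgEpiSC, against 3.56 and 3.45 in pEF. RPL26, which in humans promotes p53 translation, had 5.14 and 4.94 in pgEpiSC, against 3.61 and 3.95 in pEF. RPS10 had 3.41 and 3.32 in pgEpiSC, against 2.52 and 2.62 in pEF. The groups of these 3 genes did not overlap, and without centring their log2 fold changes in density, 0.38, 0.42 and 0.39, did not pass (limma adjusted p = 0.18, 0.13 and 0.18). RPS24 and RPL10A, with RPS10, had the lowest mean density of the 78 genes, RPS24 at 3.07 and 3.86 in pgEpiSC and 3.08 and 2.77 in pEF, and RPL10A at 3.27 and 2.84 in pgEpiSC and 3.44 and 2.40 in pEF.

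**Figure D3:**
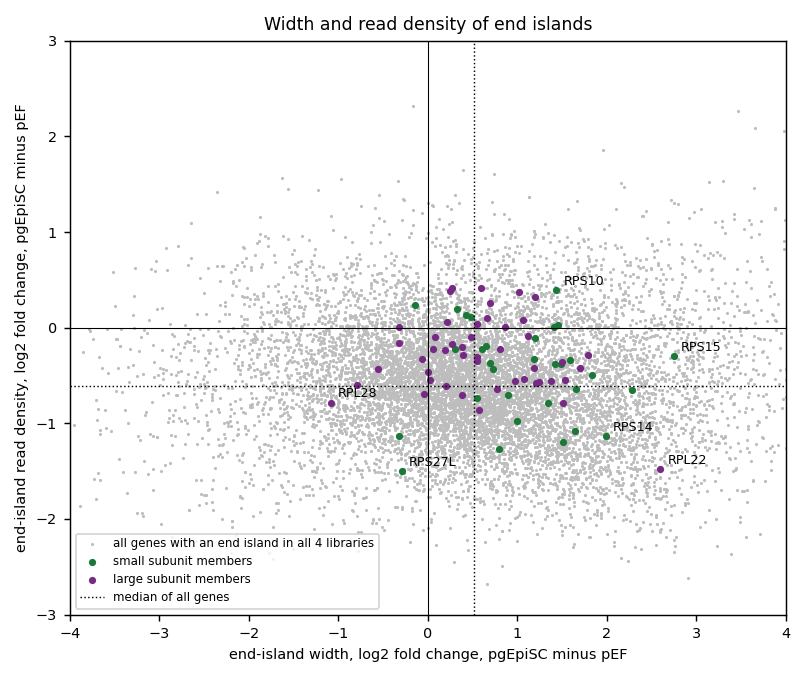
Change in end-island width (horizontal axis) against change in end-island density (vertical axis), both as log2 fold change, pgEpiSC minus pEF. Small subunit genes are green, large subunit genes purple and all other genes grey, dotted lines mark the medians of all genes and genes beyond the axes are not drawn. Most ribosomal protein genes lie at right of 0 and below 0, while their median density change of -0.34 lies above the median of all genes, -0.61, so that centring on the median gene turns it to 0.30.

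Ribosomal protein genes were also ranked by density within each library. Their median percentile among all genes with an end island was 78.8 and 74.9 in pgEpiSC 1 and 4, against 48.6 and 60.6 in pEF 1 and 2. At or above percentile 75 lay 44 and 39 of 79 genes in pgEpiSC, against 14 of 78 and 21 of 79 in pEF. Below percentile 50 lay 5 and 7 in pgEpiSC, against 41 and 34 in pEF. The rank was thus lower in pEF, but it carries no test. The lists differ in length, with 13069 and 13289 genes with an end island in pgEpiSC, against 12734 and 12535 in pEF. They also differ in the genome they cover. The difference in rank alone therefore does not establish a change between the cell types. Enrichment over input on the authors' scale had a median of 3.10 and 2.74 in pgEpiSC, against 7.13 and 7.50 in pEF, while that of all genes was 2.49 and 2.23 in pgEpiSC and 7.29 and 6.63 in pEF. Input reads per kb of end island had a median of 40.8 and 45.1 over ribosomal protein genes in pgEpiSC and 38.4 and 37.8 in pEF, against 38.4 and 43.4 over all genes in pgEpiSC and 37.5 and 37.3 in pEF.

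**Figure D4:**
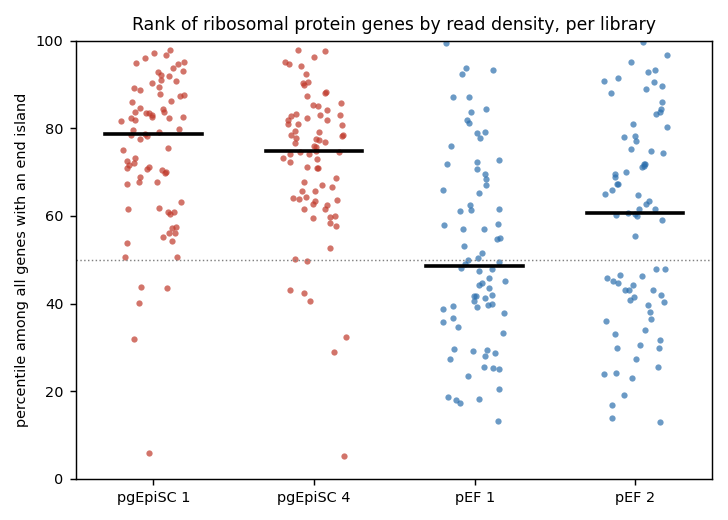
Percentile of each ribosomal protein gene among all genes with an end island, by ChIP reads per kb of end island, in pgEpiSC 1, pgEpiSC 4, pEF 1 and pEF 2. Each point is a gene and black bars mark the medians of 78.8, 74.9, 48.6 and 60.6; the dotted line is percentile 50.

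The length covered by islands in the gene and 10 kb on either side was tested for all 80 genes. By limma with Benjamini-Hochberg adjustment, 27 had more covered length in pgEpiSC (31.9% of all genes) and 2 in pEF, RPL18 on chromosome 1 and RPL14 (10.9% of all genes), with a median log2 fold change of 0.62, against 0.46 for all genes. The share of 27 among 80 is near that of all genes. When only islands enriched 2-fold or more were counted, 14 had more covered length in pgEpiSC and 1 in pEF, against 7.06% and 16.5% of all genes, with a median of 0.44, against -0.28 for all genes. Centred on the median gene, which moves every log2 fold change by -0.63, it was 7 against 6 (22.9% and 24.6% of all genes), with a median of -0.01. The count of 27 was 2 without pgEpiSC 1 (12.5% of all genes), 1 without pgEpiSC 4 (10.3%), 6 without pEF 1 (13.4%) and 5 without pEF 2 (13.4%), and the count of 2 was 0, 0, 1 and 1 in these fits. RPL18 on chromosome 1 had no covered length in pgEpiSC, against 8.6 and 13.4 kb in pEF, and RPL10L had 9.54 and 13.8 kb in pgEpiSC, against none in pEF. RPL14, a large subunit protein, had 9.8 and 8.6 kb covered in pgEpiSC, against 16.8 and 15.2 kb in pEF (-0.74 ± 0.13, limma adjusted p = 0.031). RPS14 had 20.8 and 22.7 kb in pgEpiSC, against 3.8 and 4.6 kb in pEF (2.13 ± 0.16, limma adjusted p = 0.0071), and both genes' groups stood apart.

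Several genes have a paralog, and the pairs differed in their values. RPL22L1, which RPL22 is known to repress in mice, held 36.4 and 38.1 RPM in pgEpiSC, against 13.9 and 14.5 in pEF (1.47 ± 0.20, edgeR adjusted p = 0.0098). Like RPL22 it was higher in pgEpiSC, and unlike RPL22 its density was 5.06 and 4.88 in pgEpiSC, against 3.65 and 4.03 in pEF (0.37 ± 0.21, limma adjusted p = 0.17). RPS27 was called higher in pgEpiSC and RPS27L higher in pEF, as given above. RPL26 held 59.6 and 58.3 in pgEpiSC, against 37.5 and 35.5 in pEF (0.77 ± 0.18, edgeR adjusted p = 0.033), while RPL26L1 held 9.74 and 7.69 in pgEpiSC, against 16.1 and 13.02 in pEF (-0.66 ± 0.23, edgeR adjusted p = 0.085). RPL26 was thus above in pgEpiSC and RPL26L1 above in pEF, each without overlap, and RPL26L1 did not pass.

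RPL3L, a copy of RPL3 known from striated muscle in humans and mice, held 69.8 and 74.1 RPM in pgEpiSC, against 41.1 and 31.3 in pEF (1.08 ± 0.21, edgeR adjusted p = 0.021). Most of its pgEpiSC reads, 60.4 and 63.5 RPM, lie in the island it shares with RPS2, against 27.9 and 22.5 RPM in that island in pEF. The islands at its other end held 9.37 and 10.6 RPM in pgEpiSC, against 13.2 and 8.75 in pEF, and these groups overlap. RPS2 is a small subunit protein, and its end islands held 60.4 and 63.5 in pgEpiSC, against 46.6 and 40.1 in pEF, without passing (0.60 ± 0.19, edgeR adjusted p = 0.066). RPL7 held 38.4 and 31.3 in pgEpiSC, against 49.5 and 50.1 in pEF (-0.44 ± 0.20, edgeR adjusted p = 0.15). Its relative RPL7L1 held 22.7 and 21.4 in pgEpiSC, against 29.9 and 24.5 in pEF (-0.22 ± 0.19, edgeR adjusted p = 0.39). RPL36AL held 19.7 and 21.0 in pgEpiSC, against 28.2 and 28.7 in pEF (-0.41 ± 0.19, edgeR adjusted p = 0.15). In RPL7, RPL7L1 and RPL36AL both pEF values exceeded both pgEpiSC values, and none passed.

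Ribosomal proteins also come from genes named otherwise. FAU, which encodes a ubiquitin-like protein fused to a small subunit protein, held 64.0 and 38.9 RPM in pgEpiSC, against 18.3 in both pEF libraries, and passed as higher in pgEpiSC (log2 fold change 1.56, edgeR adjusted p = 0.021). RACK1, a signalling scaffold on the small subunit, held 47.3 and 45.7 in pgEpiSC, against 52.0 and 42.5 in pEF, and did not pass. Both pgEpiSC values of RACK1 lay between those of pEF.

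In 3 related gene lists the calls on reads went both ways. Of 70 mitochondrial ribosomal protein genes tested, which build the separate ribosome of mitochondria, 10 were higher in pgEpiSC and 8 in pEF, with a median log2 fold change of 0.23. Translation factors gave 9 calls for pgEpiSC and 9 for pEF of 55, with a median of -0.09. Ribosome biogenesis genes gave 5 for pgEpiSC and 4 for pEF of 34, with a median of -0.01. These shares stand near the 20.3% and 19.8% of all genes, or below them, and the differences between the lists were not tested.

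Of 13 genes tested that regulate ribosomal protein production, 5 were higher in pgEpiSC and 0 in pEF by edgeR, against 20.3% and 19.8% of all genes. At an unadjusted p under 0.05 by the same test, 1 was higher in pEF. The median log2 fold change was 0.42, and the difference from all genes was not tested. LARP1, which binds mRNAs of ribosomal proteins, held 75.1 and 77.7 RPM in pgEpiSC, against 45.4 and 38.5 in pEF (log2 fold change 0.95, edgeR adjusted p = 0.023). RPS6KB1, the kinase of RPS6, held 34.2 and 31.3 in pgEpiSC, against 14.4 and 14.5 in pEF (1.25, edgeR adjusted p = 0.012). The others called were E2F1, YY1 and MTOR, with log2 fold changes of 1.85, 0.98 and 1.90. MYC, an activator of ribosome production, held 78.7 and 66.2 in pgEpiSC, against 82.6 and 111 in pEF, and did not pass. MYCN, its relative, could not be fitted, since it held 136 and 158 in pgEpiSC, against no end island in pEF 1 and 3.62 in pEF 2.

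**Figure D5:**
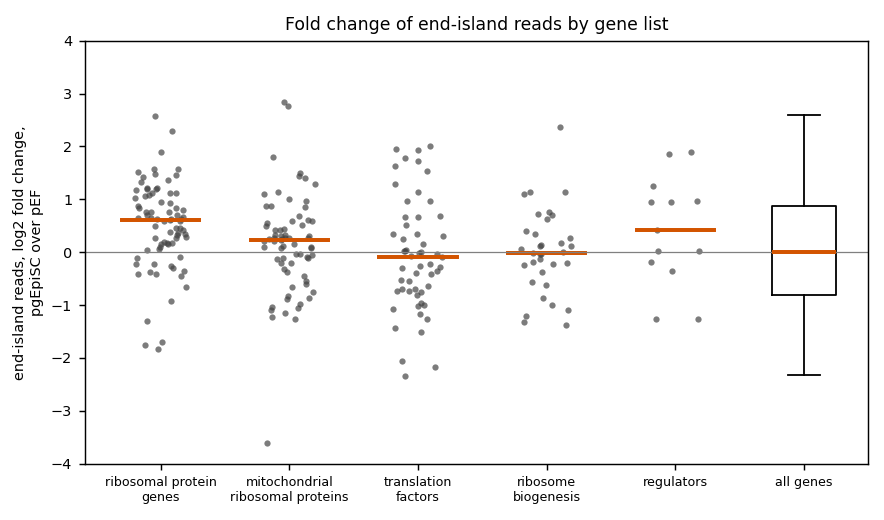
Log2 fold change of end-island reads, pgEpiSC over pEF, by edgeR, for ribosomal protein genes, 4 related lists and all genes tested. Each point is a gene, orange bars are medians, and the box gives the quartiles of all genes with whiskers at percentiles 5 and 95. The median of ribosomal protein genes is 0.61, those of the mitochondrial, translation factor and biogenesis lists are 0.23, -0.09 and -0.01, and that of the regulators is 0.42.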

How the data were processed

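H3K27ac ChIP-seq was deposited as 1 island list per ChIP library, 2 of pgEpiSC and 2 of pEF; the 4 input libraries have no lists of their own. BWA 0.7.15, SAMtools 0.1.19 and SICER 1.1 are named per the submitters' processing notes. Per the labels, libraries had a mean of 120.62 M raw reads; mapping filters and duplicate removal are not given in the sources used here, so reads of near-identical copies of ribosomal protein genes may be misplaced. The deposited lists have no header. Their count columns hold ChIP and input reads per island, as deposited by the authors. The deposited p-value columns (p and FDR against input) reached an FDR of 1 in every list, so no FDR limit had been applied. The authors' fold column holds a ratio, ChIP reads over input reads scaled to library size.

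The genome build is not named in these sources. The RefSeq table (Sscrofa11.1) was used because islands held more of its gene ends than of positions moved by 20 kb, on 19 of 19 chromosomes (81.7% against 28.6% of ribosomal protein gene ends). It gives no strand, so starts and ends of genes were treated alike. No sequence is shown and the planned motif search was not run.

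Reads were tested with edgeR 4.0.16 (TMM, quasi-likelihood), and width, density and covered length (pseudocount 1 kb) with limma 3.58.1 on the log2 scale, with the 2 libraries of each cell type, over all genes with end islands in all 4 libraries (covered length over all genes). Libraries that agreed exactly in width gave some genes no residual spread, which limma offset. DESeq2 1.42.0 was an alternative. On simulated data for this comparison with 11057 genes, edgeR called 33% of 2-fold and 100% of 4-fold changes, and limma 76% and 100%. The simulated reads varied less than the data, whose common dispersion, edgeR's measure of spread between libraries, was 0.093. For limma the simulation used normal noise of a fixed spread, not that of these islands. These shares therefore need not hold for the data.

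The members and lists were chosen with earlier results of these data known. Genes named are fixed ones (RPLP0, RPSA, RPL13A, RPL3, RPL5, RPL11, RPS6, RPS19, paralogs, FAU, RACK1), those without an end island in all 4 libraries, the 4 largest changes per direction in covered length, reads and density, and the 3 highest and 3 lowest mean densities. RPL39L is not in the table. A few genes are not reported here by name. Others are named only to spell out a count or were chosen after their values were seen.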

Additional observations from a re-analysis of the deposited data

How the results depend on the processing

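No paired analysis was possible because the cell types share only replicate number 1 and the libraries carry no other link. Island calls set the limits: ChIP reads outside islands were not used here, and total depth per library is not given in the sources used here. For reads, leaving out 1 library gave 7 to 15 calls for pgEpiSC and 1 to 3 for pEF; DESeq2 gave 33 and 5 (25.2% and 24.2% of all genes), and in the 5 settings with all 4 libraries 24 of the 27 and all 3 passed throughout. For width, the counts (pgEpiSC, pEF) were 3 and 3 after centring, 1 for pEF when only islands enriched 2-fold or more were counted (the stricter islands), and 0 for pgEpiSC in each fit leaving out 1 library. For covered length they were 7 and 6 after centring, 16 and 0 with 2 kb either side (26% and 9.84% of all genes), 14 and 1 with the stricter islands (7.06% and 16.5%), and 1 to 6 in pgEpiSC and 0 to 1 in pEF when leaving out 1 library. For density they were 10 and 2 after centring, 3 and 0 for ChIP over input reads (5.21% and 4.02% of all genes), 15 and 0 with the stricter islands (16.4% and 0.965%), and 7 to 14 in pEF when leaving out 1 library. Of the 16 genes denser in pEF, 8 kept their sign with the stricter islands and 13 for ChIP over input reads. The fit of ChIP over input reads was itself centred on the median gene. Among named genes, a called density change turned sign with the stricter islands for RPS6 (0.15), RPL7L1 (0.018) and RPL28 (0.10). All end islands of these 3 genes were enriched 2-fold or more, so their reads and widths stayed the same. With the stricter islands, RPM was scaled to the ChIP reads in those islands alone, which moves every gene of a library alike. For ChIP over input reads the change turned sign for RPS23 (0.054), where the cause was not tested. With a 5 kb window 1 gene had end islands in pEF only, and with the stricter islands 0 had them in both pgEpiSC libraries only (2.06% of all genes). The median density percentile, averaged over the pgEpiSC libraries, was 72.2 by ChIP over input reads, against 76.8. Of the other values for named genes, 825 kept their direction and side of the threshold, 91 that passed in neither fit changed sign (30 of them on centring), 209 lost their call and 39 gained one.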

Other observations

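The 4 ribosomal protein genes on X were outside the 80 and were fitted with all genes. RPL36A, a large subunit gene, held 22.3 and 20.1 RPM in pgEpiSC, against 7.09 and 6.12 in pEF, a log2 fold change of 1.76 (edgeR adjusted p = 0.0080), with end islands of 7.8 and 6.2 kb in pgEpiSC, against 2.0 and 1.6 kb in pEF. It was higher in both pgEpiSC libraries than in both pEF libraries. Its autosomal relative RPL36AL had the opposite sign and did not pass. RPS4X, a small subunit gene, held 16.1 and 15.9 in pgEpiSC, against 12.3 and 10.9 in pEF (edgeR adjusted p = 0.089). RPL39, a protein of the large subunit's exit tunnel, held 24.2 and 24.4 in pgEpiSC, against 19.4 and 20.7 in pEF (edgeR adjusted p = 0.21). RPL10, which joins the large subunit late in its assembly, held 24.0 and 23.0 in pgEpiSC, against 21.9 and 20.8 in pEF (edgeR adjusted p = 0.38). In all 4 genes both pgEpiSC values exceeded both pEF values, as in 34.8% of all genes tested, and only RPL36A passed (20.3% of all genes).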
